A study of Mus musculus with 27 samples.

Results

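The genes described here are the SPOC domain genes of the mouse that were listed for this work by name: Spen, Rbm15, Rbm15b, Phf3 and Dido1. They are 5 of the 53801 genes in a table of RNA sequencing counts, and all 5 passed the filter on low counts that kept 18363 genes. The counts come from 27 libraries of TX1072, a line of mouse embryonic stem cells with 1 BL/6J (BL6) and 1 CAST-EiJ (CAST) genome, so that reads over strain differences can be assigned to an allele. All cells carried Spen fused to a degron, which lets auxin remove the SPEN protein. Doxycycline (Dox) switches on the BL6 copy of Xist in TX1072, which carries an inducible promoter there. A GFP line expressed BglG-GFP and a SPOC line expressed BglG-GFP-SPOC, in which the SPOC domain of SPEN is joined to an RNA-binding protein of bacterial origin and GFP. Each line was left untreated, or received doxycycline at 1 ug/mL for 24 h (the Dox groups), or auxin for 12 h and then auxin with doxycycline for 24 h (the DoxAuxin groups, Dox+Auxin in the plots). The GFP line had 4 libraries per group and the SPOC line 5. The design text speaks of 4 biological replicates, and nothing says which libraries came from separate cultures, so the p-values measure the spread between these libraries. There was no group with auxin alone, and each construct was in 1 line, so the construct and any other feature of its line cannot be told apart.

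The SPOC domain is a fold, found at the C-terminal end of SPEN, RBM15 and RBM15B and further inside PHF3 and DIDO1, that binds phosphorylated peptides of partner proteins. SPEN joins it to RNA-binding domains, recruits corepressors and HDAC3, silences genes along the X chromosome coated by Xist RNA, and represses targets of the Notch pathway with the DNA-binding factor RBPJ. RBM15 and RBM15B have the same layout of RNA-binding domains and SPOC domain and guide the m6A methyltransferase complex to RNA, Xist included. PHF3 and DIDO1 carry a PHD finger and a TFIIS-like domain beside the SPOC domain and act on RNA polymerase II.

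Spen lies on the minus strand of chromosome 4, from 141467890 to 141538597 (GRCm38, GENCODE M21, as for all positions here). The 300 bases that end its coding sequence are shown because they encode the end of the SPEN protein, where the SPOC domain lies, which is the part of the gene that the SPOC construct is named for. They span exons 13 to 15 of the transcript Spen-201 (chr4:141469816-141469824, chr4:141469383-141469541 and chr4:141468906-141469037), whose coding sequence has 10863 bases. They are printed 5′ to 3′ with the stop codon in capitals.
Spen coding end: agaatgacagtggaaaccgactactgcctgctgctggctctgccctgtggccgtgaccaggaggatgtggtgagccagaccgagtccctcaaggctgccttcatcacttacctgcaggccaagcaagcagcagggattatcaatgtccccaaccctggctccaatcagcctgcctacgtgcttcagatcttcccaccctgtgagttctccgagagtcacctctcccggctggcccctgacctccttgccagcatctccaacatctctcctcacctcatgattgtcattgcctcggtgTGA

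The promoter of Spen is shown because Spen had the largest change of the 5 genes between treatments. The 250 bases before its RefSeq start (chr4:141538598-141538847, minus strand, GRCm38.p6) were searched on both strands for the core motif of RBPJ, TGGGAA, and for the longer GTGGGAA, which contains it. Matches are in capitals.
Spen promoter: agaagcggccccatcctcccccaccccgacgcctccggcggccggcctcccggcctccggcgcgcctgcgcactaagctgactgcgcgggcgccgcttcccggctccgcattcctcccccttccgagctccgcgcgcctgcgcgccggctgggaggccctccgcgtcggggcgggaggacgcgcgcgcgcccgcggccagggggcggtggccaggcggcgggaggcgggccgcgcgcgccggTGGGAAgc
The window held 1 match, whose first base lies 8 bases before the start, and it is also a match to GTGGGAA. Of 32851 RefSeq promoter windows of this length, 21.6% held TGGGAA and 5.42% held GTGGGAA. The windows of Rbm15 and Rbm15b held neither, and 1 of 3 windows of Dido1 held both. The Spen window had a GC content of 82.4%, against a median of 52.4% over all windows.

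Total counts per library ran from 28936459 to 45489094. The summed level of 7 markers of mouse embryonic stem cells was 4570 to 5499 CPM (the count scaled to a fixed library size) over all libraries. That of 5 primitive endoderm, 4 mesoderm and neural, and 5 fibroblast markers was at most 6.5, 38.8 and 36.8 CPM, and none of these genes was at 0 in every library. SPOC untreated replicate 2 held far more Xist than the other 4 libraries of its group and goes against its label. Without it, the only call on a SPOC domain gene that changed was that of Rbm15 in Dox against untreated cells of the SPOC line. Xist also differed between groups with doxycycline, at 747 to 918 CPM in GFP Dox and 382 to 630 in GFP DoxAuxin. SPOC Dox libraries held 308 to 458 CPM of Xist and SPOC DoxAuxin libraries 290 to 415. The part of Xist level in the comparisons of these groups was not tested. Allelic columns exceeded the totals that share their names in many genes, and the allelic pairs were matched to libraries by the counts, as told with the processing. Levels are CPM scaled by TMM, fold changes are log2, and calls rest on a Benjamini-Hochberg adjusted p under 0.05 in edgeR's quasi-likelihood test over all genes.

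**Figure D1:**
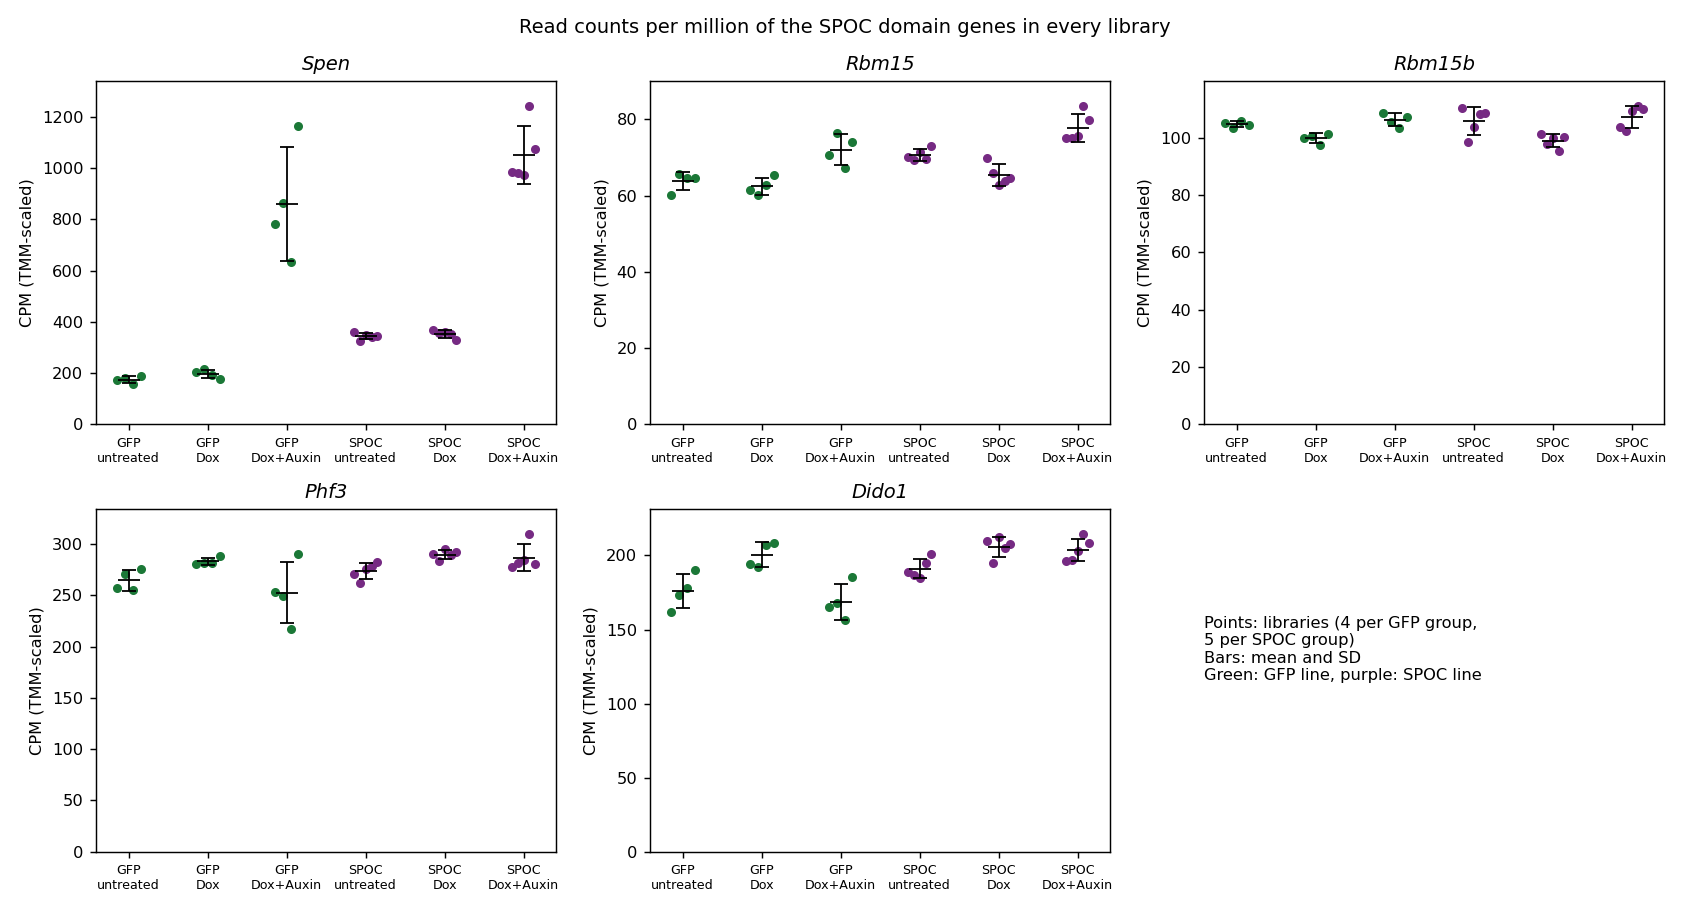
CPM of the 5 SPOC domain genes (1 panel each, axes from 0) in every library of the 6 groups, with the mean and SD of each group. Spen rises in the DoxAuxin groups of both lines, to 634 or more, while the other 4 genes move within a narrow band.

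Spen mRNA was several times higher in DoxAuxin than in untreated cells of both lines. In the GFP line the libraries held 173, 179, 158 and 187 CPM untreated, 203, 214, 193 and 178 with Dox, and 782, 862, 634 and 1164 with DoxAuxin. In the SPOC line they held 358, 326, 346, 341 and 343 CPM untreated, 369, 355, 360, 351 and 329 with Dox, and 985, 983, 973, 1242 and 1075 with DoxAuxin. Each DoxAuxin library lay above all libraries of the other treatments of its line, and untreated and Dox libraries overlapped in both lines. The rise over untreated cells was 686.5 CPM (SE 112) in GFP cells and 708.5 CPM (SE 51.3) in the SPOC line, a difference between the rises of 22 CPM (SE 123). As log2 fold changes the same rises were 2.31 (SE 0.12) and 1.62 (SE 0.11), and the line difference in fold change was -0.69 (SE 0.16, edgeR adjusted p = 0.0237). Leaving out GFP untreated replicate 3 ended that call (adjusted p = 0.0547). Against Dox, the rises were 663.5 CPM (SE 112) and 698.9 CPM (SE 51.5), and the line difference in log2 fold change was -0.55 (SE 0.16, adjusted p = 0.0348). That call was lost without any of 10 single libraries (GFP Dox replicates 1, 3 and 4, GFP DoxAuxin replicate 2, SPOC Dox replicates 1, 2 and 4, and SPOC DoxAuxin replicates 1, 2 and 3), with adjusted p up to 0.081. In bulk RNA, a change in the share of cells that express a gene and a change in RNA per cell cannot be told apart. The degron removes protein, and SPEN protein was not measured in these files.

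The extra Spen reads of the SPOC line were almost all reads that were not assigned to an allele. In untreated cells, 40.2%, 40.4%, 39.0% and 41.1% of the Spen reads of the GFP libraries were assigned to BL6 or CAST, and 23.0%, 22.0%, 21.9%, 22.7% and 23.4% of those of the SPOC libraries. With Dox the shares were 40.7% to 41.6% and 22.5% to 24.8%, and with DoxAuxin 40.5% to 42.4% and 34.2% to 37.0%. The groups of the lines did not overlap under any treatment, and in the SPOC line all DoxAuxin libraries lay above all others. Over all genes together, 34.1% to 35.0% of the reads were assigned in every library. The ratio of assigned to other Spen reads was lower in the SPOC line by a log2 difference of -1.18 (SE 0.04, edgeR adjusted p = 1.08e-19) untreated, -1.18 (SE 0.04, adjusted p = 9.18e-20) with Dox and -0.35 (SE 0.03, adjusted p = 2.46e-09) with DoxAuxin. Of 15353 genes tested, 0.013% were called untreated, 0.0261% with Dox and 0.143% with DoxAuxin, and Spen was the 1 SPOC domain gene among them in each case. The other gene called in untreated cells was the pseudogene Gm6472 (0.44, adjusted p = 0.0252), named here after its value was seen. The ratio of Spen rose with DoxAuxin in the SPOC line by 0.91 (SE 0.03, adjusted p = 4.62e-19, with 0.124% of genes called) and was at 0.08 (SE 0.04, adjusted p = 0.535, with 0.417% called) in the GFP line. The difference between these changes was 0.82 (SE 0.05, adjusted p = 1.24e-12, with 0.0391% called).

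Counted by class of read, the 2 lines differed in unassigned Spen reads and overlapped in assigned ones. Unassigned Spen reads were 104 ± 5.8, 115.8 ± 9.05 and 501.4 ± 124 CPM in the untreated, Dox and DoxAuxin groups of the GFP line (SD, n = 4) and 265.5 ± 8.03, 270 ± 9.05 and 676.7 ± 67.9 CPM in the SPOC line (SD, n = 5). The SPOC line was higher by 161.5 CPM (SE 4.61) untreated, 154.2 CPM (SE 6.07) with Dox and 175.3 CPM (SE 69) with DoxAuxin, where the libraries of the lines overlapped. Assigned Spen reads were 69.97 ± 6.28, 81.18 ± 6.47 and 359.1 ± 99.2 CPM in the GFP line and 77.47 ± 4.09, 82.62 ± 6.31 and 374.9 ± 47.9 CPM in the SPOC line. Here the libraries of the lines overlapped under every treatment, and the differences were 7.49 CPM (SE 3.63), 1.45 CPM (SE 4.29) and 15.8 CPM (SE 54).

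A refit of the expression model on assigned reads alone, added after the data had been seen, gave no call for Spen between the lines. The log2 difference of SPOC from GFP cells was 0.16 (SE 0.13, edgeR adjusted p = 0.535) untreated, 0.03 (SE 0.13, adjusted p = 0.927) with Dox and 0.07 (SE 0.13, adjusted p = 0.749) with DoxAuxin, where 6.33%, 7.25% and 20.3% of 15181 genes were called. On all reads these were 0.98 (SE 0.12, adjusted p = 4.08e-05), 0.84 (SE 0.12, adjusted p = 6.04e-05) and 0.29 (SE 0.11, adjusted p = 0.0621), the last with adjusted p = 0.000342 without GFP DoxAuxin replicate 4. On assigned reads the rise with DoxAuxin over untreated cells was 2.36 (SE 0.14) in the GFP line and 2.27 (SE 0.13) in SPOC cells, both called, as were 34.8% and 28.1% of all genes. The line difference of the rises was then -0.09 (SE 0.18, adjusted p = 0.875, with 1.63% of genes called), and against Dox it was 0.04 (SE 0.18, adjusted p = 0.946, with 5.44% called). On unassigned reads the line difference was -0.92 (SE 0.15, adjusted p = 0.0029, with 1.95% of 16443 genes called). A p that misses the threshold does not show that the lines had the same level. The deposited counts are per gene and not per exon, and whether reads from the construct were counted in Spen was not tested.

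**Figure D2:**
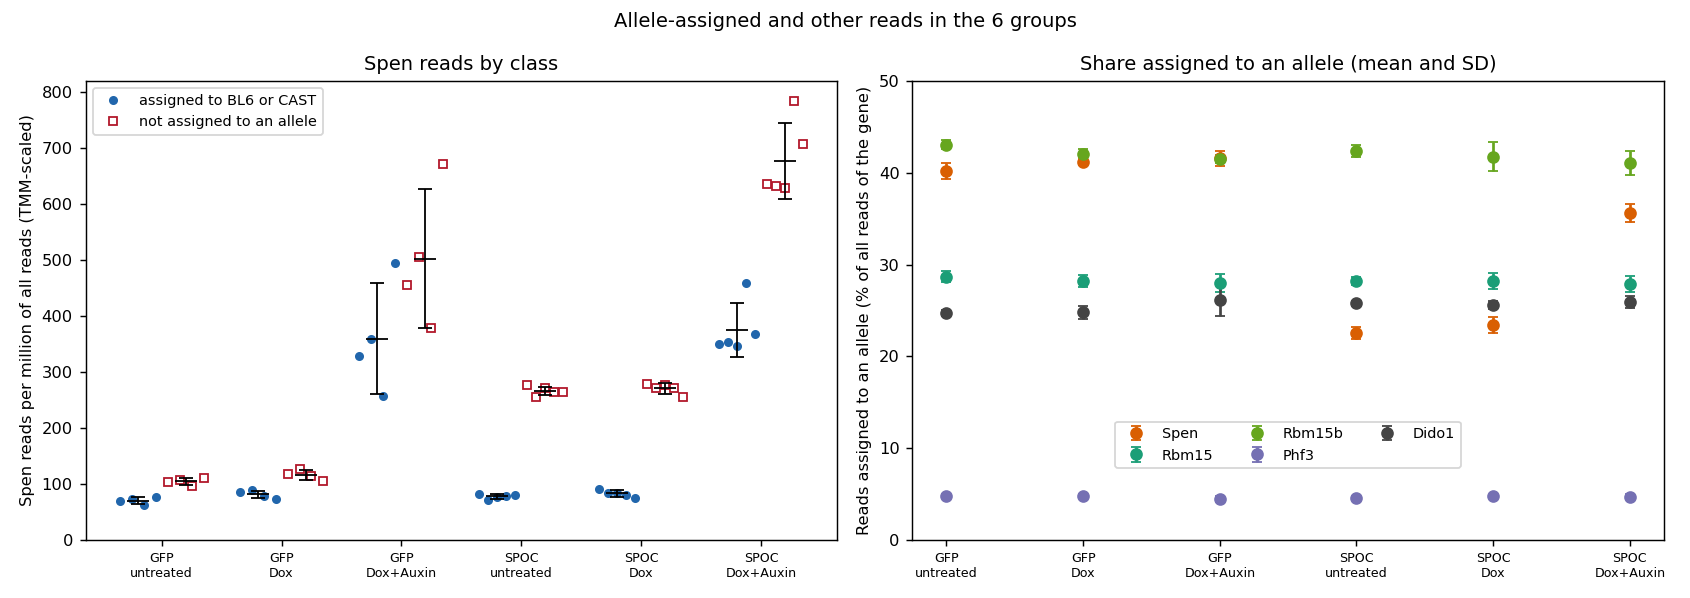
Left, CPM of Spen (axis from 0) from reads that were assigned to an allele (filled points) or not (open squares) in every library, with group means and SD. Right, mean and SD of the share of each gene's reads assigned to an allele, where Spen in the SPOC line lies at 22.6%, 23.4% and 35.6% against 40.2% to 41.6% in the GFP line, and the other 4 genes have group means of 4.41% to 43.1%.

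The other SPOC domain genes had group means of the allele-assigned share of 27.9% to 28.7% for Rbm15, 41.1% to 43.1% for Rbm15b, 4.41% to 4.80% for Phf3 and 24.7% to 26.1% for Dido1. None of the 4 was called by edgeR in any of the 8 comparisons of assigned with other reads. At an unadjusted p under 0.05, 4 of the 5 genes, Spen included, passed in DoxAuxin against untreated cells of the GFP line, as did 1238 of all 15353 genes. None did in Dox against untreated cells, where 667 (GFP) and 791 (SPOC) of all genes passed and 0.13% and 0.0977% were called. Rbm15b was at 42.4% to 43.4% in untreated GFP libraries and at 41.0% to 41.9% with DoxAuxin, which did not overlap. Phf3, with few assigned reads, rested on 336 to 613 allelic reads per library, Rbm15 on 533 to 839, and Spen on 2181 to 17378.

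Both alleles of Spen rose with DoxAuxin, and the CAST allele rose slightly more. As BL6 or CAST counts scaled to CPM of all allelic reads, BL6 Spen went from 101.5 ± 11.5 to 495.1 ± 127 and CAST Spen from 100.4 ± 7.20 to 547.5 ± 151 in the GFP line (SD, n = 4), and from 113.5 ± 4.07 to 519.4 ± 72.3 and from 110.6 ± 7.61 to 571.3 ± 75.5 in the SPOC line (SD, n = 5). The BL6 share of allelic Spen reads was 48.5%, 50.9%, 49.5% and 51.9% in untreated GFP libraries and 48.1%, 47.2%, 48.0% and 47.0% with DoxAuxin. For SPOC libraries it was 49.7%, 53.1%, 49.7%, 49.4% and 51.5% untreated and 48.3%, 47.5%, 46.7%, 47.8% and 47.8% with DoxAuxin. In both lines every DoxAuxin library lay below every untreated one, while the share over all genes was 49.4% to 49.9% in all libraries. With Dox alone the shares were between 48.1% and 49.8% in the GFP line and between 47.1% and 50.4% in the SPOC line, overlapping those of untreated cells.

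In the edgeR test of BL6 against CAST reads over 12602 genes, the log2 ratio of Spen fell by 0.16 with DoxAuxin in the GFP line (SE 0.03, adjusted p = 4e-04) and by 0.18 in the SPOC line (SE 0.03, adjusted p = 1.13e-05). These 2 comparisons called 5.94% and 4.72% of all genes, and Spen alone of the 5 SPOC domain genes. A difference between the lines in this change was not called (-0.02, SE 0.05, adjusted p = 0.97, with 0.682% of genes called). Leaving out single libraries kept both calls, with changes of -0.19 to -0.12 in the GFP line and -0.20 to -0.14 in SPOC cells, the smallest without the high-Xist library. With the allelic columns taken as named, both calls were lost (adjusted p = 0.798 and 0.785). No SPOC domain gene was called in Dox against untreated cells of either line (4.49% and 3.58% of genes called) or between the lines (0.397% untreated, 2.07% with Dox and 2.81% with DoxAuxin). At an unadjusted p under 0.05, Spen was lower with Dox in the SPOC line (-0.09, SE 0.04, adjusted p = 0.257) and Phf3 lower in SPOC than GFP cells with Dox (-0.22, SE 0.09, adjusted p = 0.307). Dido1 was at 49.0% to 50.2% with Dox and 50.3% to 51.9% untreated in the GFP line, which did not overlap and was not called (-0.09, SE 0.05, adjusted p = 0.52). Rbm15 had the highest BL6 share, with group means of 52.6% to 55.1%, and Phf3, at 45.5% to 49.4%, the lowest in the 4 groups without auxin, while Spen was below it in both DoxAuxin groups (47.6% against 48.6% and 49.4%).

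**Figure D3:**
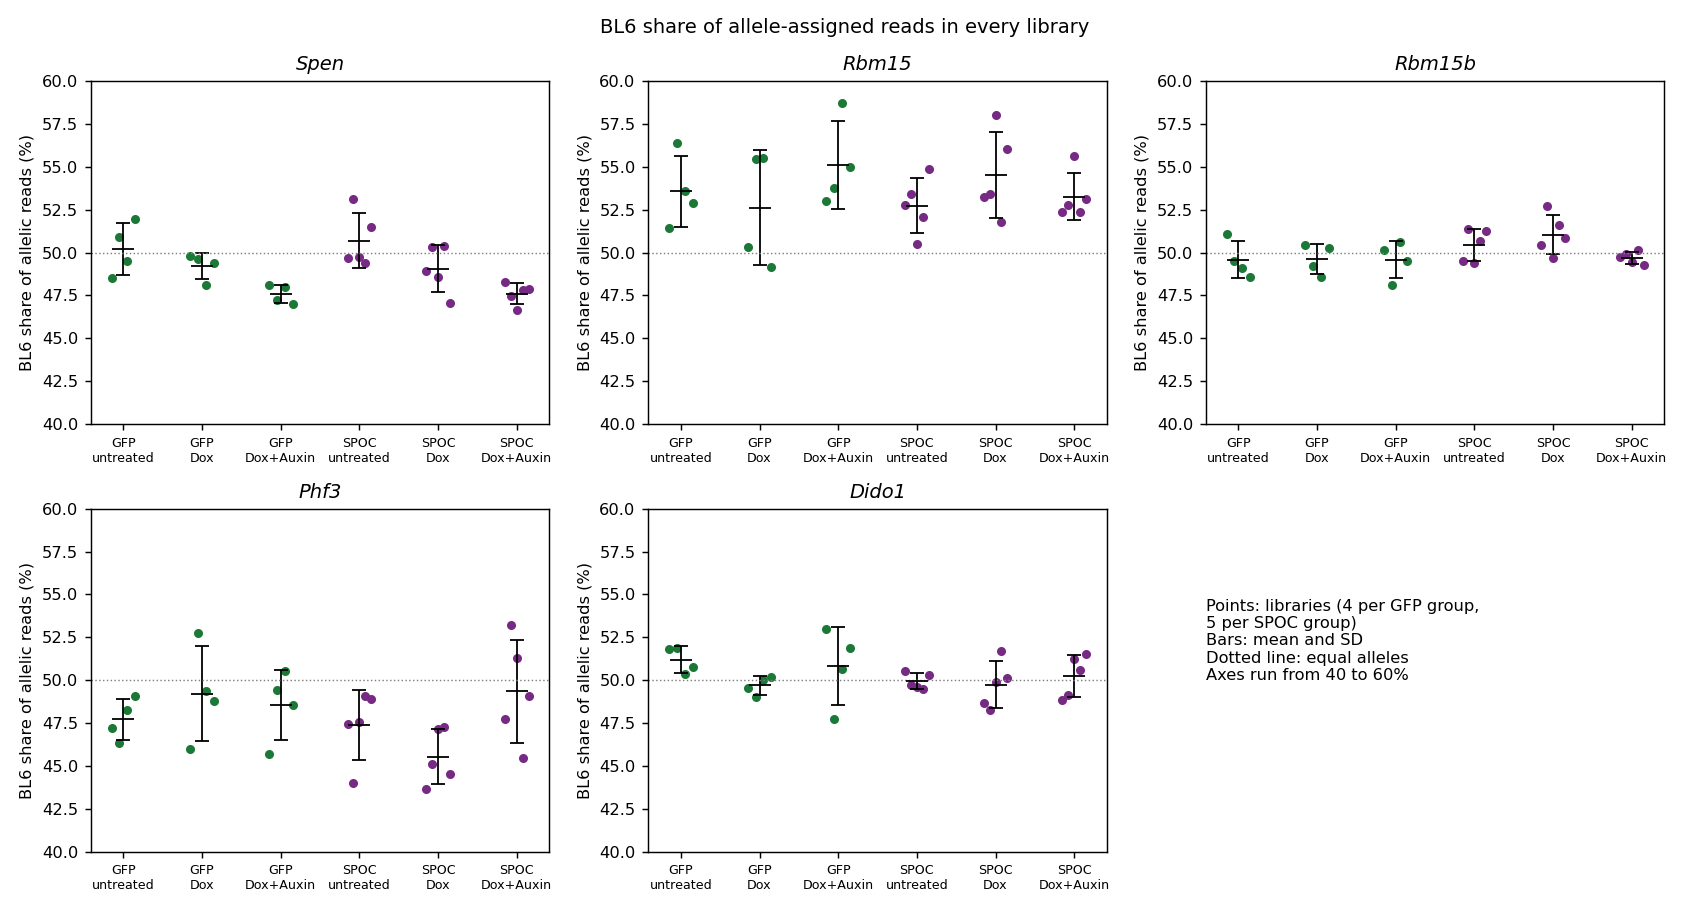
BL6 share of allele-assigned reads (axes from 40 to 60%) for each of the 5 genes in every library of the 6 groups, with means and SD. Spen falls below all untreated libraries in the DoxAuxin groups of both lines, to 48.3% or less, and for the other 4 genes untreated and DoxAuxin libraries overlap in both lines.

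Rbm15 (chromosome 3, 107325421 to 107333673, minus strand) was the 1 other SPOC domain gene that was higher with DoxAuxin than in untreated cells of both lines. In the GFP line it was at 60.2, 65.5, 64.7 and 64.5 CPM untreated and at 70.5, 76.5, 67.2 and 74.1 CPM with DoxAuxin. SPOC libraries had 70.1, 69.3, 71.5, 69.5 and 73.0 CPM untreated and at 75.2, 75.2, 75.6, 83.4 and 79.9 CPM with DoxAuxin. The groups did not overlap in either line. The log2 changes were 0.18 (SE 0.04, edgeR adjusted p = 0.00122) and 0.14 (SE 0.04, adjusted p = 0.00466), which on assigned reads alone missed the threshold (adjusted p = 0.0552 and 0.0883). Against Dox, where Rbm15 was at 60.2 to 65.4 CPM in GFP cells and 62.8 to 69.9 in the SPOC line, it rose by 0.21 and 0.25 (adjusted p = 0.000155 and 5.8e-06). Dox against untreated cells of the SPOC line lowered it by 0.11 (adjusted p = 0.0477), a call lost without any of 9 of the 10 libraries (adjusted p = 0.0518 without the high-Xist library, and at most 0.135). That call was also lost in a fit of only the groups compared (edgeR adjusted p = 0.0503) and with no filter on low counts (0.0867). Untreated SPOC cells held more Rbm15 than untreated GFP cells, by 0.15 (adjusted p = 0.0165, and 0.0842 without GFP untreated replicate 1).

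Rbm15b (chromosome 9, 106880918 to 106887428, minus strand), the close relative of Rbm15, stayed between 95.6 and 111 CPM in all libraries. In the GFP line it was at 97.5 to 101.5 CPM with Dox and 103.3 to 105.9 untreated, which did not overlap, and the log2 difference of -0.07 was not called (SE 0.03, adjusted p = 0.154). Among SPOC libraries, at 95.6 to 101.3 CPM with Dox against 98.4 to 110.6 untreated, the log2 difference of -0.10 was called (SE 0.03, adjusted p = 0.0264, and at most 0.112 without 1 of 5 libraries, namely Dox replicates 2 and 4 and untreated replicates 1, 4 and 5). This SPOC call was also lost in a fit of only the groups compared (edgeR adjusted p = 0.0769) and with no filter on low counts (0.0963). DoxAuxin against Dox gave 0.09 in the GFP line (SE 0.03, adjusted p = 0.0272) and 0.12 in the SPOC line (SE 0.03, adjusted p = 0.00323). The GFP call was lost without Dox replicate 3 or DoxAuxin replicate 1 (edgeR adjusted p = 0.0673 and 0.0818). It was also lost with no filter on low counts (adjusted p = 0.158) and in a fit of only the groups compared (0.0985). On assigned reads alone the calls of both lines were lost (adjusted p = 0.191 and 0.0876). Against untreated cells, DoxAuxin left Rbm15b at 0.02 in both lines (SE 0.03). Rbm15b shares 75 exon bases with Dcaf1 on the other strand and 14 with Manf on its own, and Spen shares 41 with Zbtb17 on the other strand. Whether counting used strand is not stated in these sources, so reads in these stretches are uncertain.

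**Figure D4:**
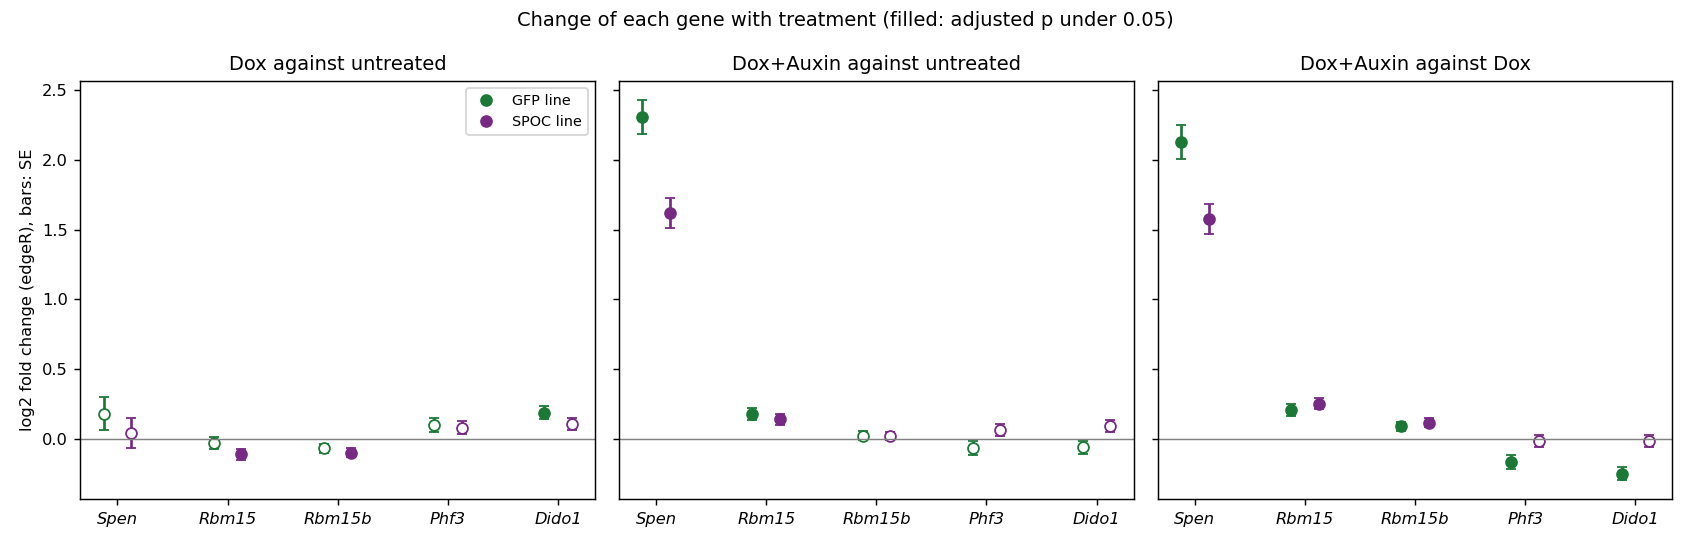
log2 fold changes with SE of the 5 genes for Dox against untreated, DoxAuxin against untreated and DoxAuxin against Dox, in the GFP and SPOC lines (filled points are called). Spen stands at 1.58 to 2.31 in the comparisons with DoxAuxin, and the other genes lie between -0.25 and 0.25.

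Dido1 and Phf3, the genes of the RNA polymerase II group, were lower with DoxAuxin than with Dox in the GFP line. Dido1 (chromosome 2, 180657964 to 180709999, minus strand) was at 162, 173, 178 and 190 CPM untreated, 194, 192, 207 and 209 with Dox, and 165, 168, 156 and 185 with DoxAuxin. Each Dox library lay above all libraries of both other treatments. It rose with Dox by 0.19 (SE 0.05, edgeR adjusted p = 0.00278) and was lower with DoxAuxin than with Dox by a log2 difference of -0.25 (SE 0.05, adjusted p = 3.85e-05). In the SPOC line Dido1 was at 189, 187, 185, 195 and 201 CPM untreated, 209, 195, 213, 205 and 208 with Dox, and 196, 197, 203, 214 and 208 with DoxAuxin, so that Dox and DoxAuxin overlapped (-0.02, SE 0.04, adjusted p = 0.822). Against untreated SPOC cells, Dido1 was at 0.11 with Dox and 0.09 with DoxAuxin (adjusted p = 0.0816 and 0.0845), and both were called with the replicate number as a block (adjusted p = 0.00798 and 0.0127). Both were also called in a fit of only the groups compared (edgeR adjusted p = 0.0225 and 0.0368). The difference between the lines in the change of Dido1 from Dox to DoxAuxin was 0.23 (SE 0.06, adjusted p = 0.0158), and on assigned reads alone 0.18 (adjusted p = 0.12). For DoxAuxin against untreated the line difference was 0.15 and was not called (SE 0.06, adjusted p = 0.18).

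Phf3 (chromosome 1, 30802339 to 30873921, minus strand) was at 257, 271, 255 and 276 CPM untreated in the GFP line. It was at 281, 282, 282 and 288 CPM with Dox and at 253, 250, 217 and 290 with DoxAuxin there, where the highest DoxAuxin library, replicate 4, lay above all Dox libraries. Each Dox library lay above all untreated ones, in the SPOC line too (283.4 to 294.9 against 262.2 to 282.6 CPM). These log2 changes of 0.10 and 0.08 were not called (edgeR adjusted p = 0.169 and 0.256), but were in a fit of only the groups compared (0.0135 and 0.033). For DoxAuxin against Dox in the GFP line the log2 difference was -0.17 (SE 0.05, adjusted p = 0.00627, and 0.0507 in a fit of only the groups compared). In the SPOC line it was at 283 to 295 CPM with Dox and 277 to 310 with DoxAuxin (-0.02, SE 0.04, adjusted p = 0.831), and the difference between the lines was not called (0.15, SE 0.07, adjusted p = 0.171), but it was without GFP DoxAuxin replicate 4 (0.22, adjusted p = 0.00755). Without that library Phf3 was also lower with DoxAuxin than in untreated GFP cells (-0.14, adjusted p = 0.00827), against -0.07 (adjusted p = 0.296) with it. With DoxAuxin, SPOC cells held more Dido1 (0.27, SE 0.04, adjusted p = 3.53e-05), Phf3 (0.18, SE 0.05, adjusted p = 0.00474, and 0.0763 in a fit of only the groups compared) and Rbm15 (0.11, SE 0.04, adjusted p = 0.0405) than GFP cells. The Rbm15 call was lost without any of 4 libraries (GFP DoxAuxin replicates 1 and 3, SPOC DoxAuxin replicates 4 and 5), with adjusted p up to 0.174.

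Marker levels also differed between these groups. In the GFP line the 7 markers of mouse embryonic stem cells summed to 4912 to 5118 CPM untreated, 5199 to 5346 with Dox and 4570 to 4881 with DoxAuxin. Of these, 5 of 7 were lower and 1 higher in DoxAuxin against Dox, where 47.6% of all genes were called. In the SPOC line they summed to 5099 to 5499 CPM with Dox and 4793 to 5211 with DoxAuxin, with 4 of 7 lower and 1 higher (32% of all genes called). The 5 fibroblast markers, 2 of them under 1 CPM in all libraries, summed to 25.02 to 27.28 CPM in GFP DoxAuxin and to 33.9 to 36.8 CPM in the other GFP groups. SPOC libraries summed to 23.4 to 29.8 CPM with DoxAuxin and 27.9 to 35.5 CPM in the other groups. The 4 mesoderm and neural markers summed to 29.28 to 33.59 CPM untreated, 25.27 to 26.79 with Dox and 32.09 to 37.44 with DoxAuxin in GFP cells, and to 33.09 to 38.8, 26.97 to 32.77 and 28.09 to 36.26 CPM in SPOC cells. Of these 4, Pax6 rose by 2.17 and 1.29 with DoxAuxin against untreated (edgeR adjusted p = 2.33e-07 and 3.82e-05) and Sox1 fell by 1.07 and 0.60 (adjusted p = 1.27e-06 and 0.000886). Both were at low levels. Mean Pax6 went from 0.317 to 1.45 CPM in GFP cells and from 0.687 to 1.70 in SPOC cells, and Sox1 from 2.86 to 1.37 and from 2.57 to 1.69. T and Eomes had group means of 10.3 to 20.2 CPM. The part of these shifts in the changes of Spen, Rbm15, Dido1 and Phf3 was not tested.

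The number of the 5 genes called in each comparison can be read against the share of all genes called there, and 5 genes make that share coarse. Dox against untreated called 1 of 5 in the GFP line (20.9% of all 18363 genes) and 2 of 5 in the SPOC line (13.5%, or 2478 genes, against 4145 and 3 of 5 with a replicate block). DoxAuxin against untreated called 2 of 5 in each line (38.2% and 33.3%). DoxAuxin against Dox called 5 of 5 in the GFP line (47.6%) and 3 of 5 in the SPOC line (32%). SPOC against GFP cells called 2 of 5 untreated (11.6%), 1 with Dox (10.7%) and 3 with DoxAuxin (24.6%). The line differences in change called 1 of 5 for DoxAuxin against untreated (2.4%) and 2 of 5 for DoxAuxin against Dox (8.14%). The comparisons of 1 line share its groups and are not independent of each other. The median log2 change of the 5 genes with DoxAuxin against untreated was 0.02 in the GFP line and 0.09 in SPOC cells, against -0.0027 and -0.0096 for all genes.

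Per kilobase of exon, the deposited size-factor-scaled counts give an order of the 5 genes. In untreated GFP cells the level per kb was highest for Phf3 (646 ± 25.3), then Rbm15b (557 ± 5.78), Dido1 (458 ± 31.3), Spen (427.7 ± 29.8) and Rbm15 (297 ± 11.6; SD, n = 4). The libraries of Dido1 and Spen overlapped and those of the other neighbours did not. With Dox the order in the GFP line was the same, with Rbm15b and Dido1 overlapping as well as Dido1 and Spen. Spen was the highest in the other 4 groups, at 2116 ± 557 per kb in GFP DoxAuxin and 840.1 ± 26.9, 866 ± 38.0 and 2587 ± 286 in the SPOC groups, where unassigned reads add to it as described above. Phf3 followed it in these 4 groups, and Rbm15 was the lowest in all 6. Spocd1, which also encodes a SPOC domain protein and is known from the germline, was at 0 to 0.148 CPM in all libraries and did not pass the filter on low counts.

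Partner genes of the family were called in both directions with DoxAuxin against untreated, where 38.2% (GFP) and 33.3% (SPOC) of all genes were called. The m6A writer complex, which RBM15 and RBM15B guide, had 1 of 6 members higher and 2 lower in the GFP line and 2 higher in the SPOC line, with medians of -0.06 and 0.03. Mettl3, its catalytic subunit, rose from 29.2 ± 1.79 to 37.6 ± 1.67 CPM in the GFP line (SD, n = 4; 0.37, edgeR adjusted p = 5.97e-07) and from 31.4 ± 1.96 to 38.3 ± 0.581 in the SPOC line (SD, n = 5; 0.29, adjusted p = 8.44e-06). Zc3h13 fell by 0.19 in the GFP line (adjusted p = 0.00122) and Virma rose by 0.14 in the SPOC line (adjusted p = 0.00705). Of the 7 m6A readers and erasers, 2 were lower in each line. Fto, an RNA demethylase, fell by 0.23 and by 0.19 (adjusted p = 4.81e-06 and 4.18e-05), Ythdc2 by 0.16 in the GFP line (adjusted p = 0.0168) and Alkbh5, another demethylase, by 0.17 in the SPOC line (adjusted p = 0.0245).

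Of the genes of the NCoR corepressor complex, which binds the SPOC domain of SPEN, Ncor1 went from 258 ± 9.74 to 216 ± 26.2 CPM in the GFP line (-0.26, adjusted p = 0.000508) and Tbl1x fell by 0.30 in the SPOC line (adjusted p = 9.23e-05). Tbl1x was lower still with Dox alone, at 299.3 ± 34 CPM untreated, 209.3 ± 5.89 with Dox and 243.1 ± 10.1 with DoxAuxin in SPOC cells (SD, n = 5). GFP cells held 330.5 ± 8.07, 201.9 ± 3.43 and 349.2 ± 25.6 CPM (SD, n = 4), a log2 change with Dox alone of -0.71 (edgeR adjusted p = 9.78e-10). The part of Xist, which Dox switches on, in these changes of Tbl1x was not tested. For the lists that follow, DoxAuxin against untreated called 38.2% (GFP) and 33.3% (SPOC) of all genes. Of the 5 RBPJ repressor partners, 1 was higher and 3 lower in the GFP line and 1 higher and 1 lower in the SPOC line. Rbpj itself fell by 0.32 in the GFP line, from 247.5 ± 7.61 to 198.8 ± 13.5 CPM (adjusted p = 1.02e-06). The corepressor gene Ctbp1 rose by 0.31 and 0.17 in the 2 lines (adjusted p = 6.6e-09 and 2.83e-05), and Ctbp2 fell by 0.28 and 0.20 (adjusted p = 8.35e-09 and 1.26e-06). The 12 genes of RNA polymerase II elongation, the field of PHF3, had 2 lower in the GFP line, and 3 higher and 2 lower in the SPOC line. Tcea3, which encodes a TFIIS protein, fell by 0.29 and 0.31 (adjusted p = 0.000173 and 3.49e-05), Supt4a by 0.22 in the GFP line (adjusted p = 0.00245), and Paf1 rose by 0.14 in the SPOC line (adjusted p = 0.0019).

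Libraries of a group also varied together in some of the genes. GFP DoxAuxin replicate 4 was the highest of its group for Spen, Phf3 and Dido1, and replicate 3 the lowest for all 3 and for Rbm15. Across the 27 libraries, Pearson's r of log2 CPM was 0.04 between Spen and Phf3, and 0.853 once group means were removed, where the DoxAuxin groups have the widest spread; in GFP Dox the library with the least Spen, replicate 4, held the most Phf3. It was 0.881 between Phf3 and Dido1 (0.757 with group means removed) and 0.852 between Spen and Rbm15 (0.473). These values are descriptions, since libraries of a group share their treatment and line and the scaling of a library touches all its genes.

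Likeness was ranked among 12364 genes whose mean over libraries reached 1 CPM. Predicted genes (Gm and a number), Rik names, pseudogenes and unnamed IDs were left out. Of the genes ranked, those with the pattern most like Spen over the 27 libraries were Epha7 (r = 0.954), Bace1 (0.949), Gstm3 (0.948), Prrt3 (0.945) and Dpysl3 (0.943). Their r over the 12 GFP libraries was 0.946 or more, and over the 15 SPOC libraries 0.916 or more. These genes were picked by r over the same 27 libraries, so the r within each line is a description and no separate support. It also does not measure the size of a change. Epha7, an ephrin receptor gene, was at 5.37 ± 0.196 CPM untreated and 7.77 ± 0.583 with DoxAuxin in the GFP line (SD, n = 4), and at 6.02 ± 0.294 and 7.97 ± 0.475 in the SPOC line (SD, n = 5). Gsr, the glutathione reductase gene, was most like Rbm15 (0.914), before Nufip2 (0.888) and Zmpste24 (0.878). Maml1 (0.822), Rdx (0.819) and Pank1 (0.807) were most like Rbm15b, Appbp2 (0.926), Ddi2 (0.901) and Slc23a2 (0.891) most like Phf3, and Xpo1 (0.939), Cluh (0.931) and Rtn4 (0.919) most like Dido1.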

How the data were processed

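Count columns deposited by the authors hold reads per gene for 27 libraries, in total and for the BL6 and CAST alleles. The build mm10 is named, and STAR 2.5.3a, featureCounts, Trim Galore 0.4.4, DESeq2 1.18.1 and Picard 2.18.2 were used, per the submitters' processing notes, which give no order. Allele assignment and strand setting: not given in the sources used here. Deposited columns headed RPKM were treated as a signal, since 94.45% of values above 0 were the count over a median-of-ratios size factor and the exon length in kb (within a relative 0.001), with no scaling to library size beyond that factor. Each allelic pair was given the 1 total column that was never below BL6 plus CAST in any gene. All 27 pairs had exactly 1 such total, none of the same name, and 7 in the named group. Against the total of its own name, each pair exceeded it in at least 1303 genes.

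Counts were scaled by TMM, filtered by filterByExpr and fitted over all libraries with a term per group (edgeR 4.0.16, R 4.3.3, robust quasi-likelihood test). BL6 and CAST counts, and assigned against other reads, were fitted with a term per library and an interaction per group, for genes with at least 10 reads in every library. The SE is the fold change over the root of the F statistic. Both tests were tested on simulated data. The allelic test first missed its criterion there and was then judged by a new one with larger changes added, and it recovered few of the smallest changes. The noise of that simulation was a fixed setting not taken from these data, so its recovery does not give the power here. An allelic change that was not called may still be missed. Deviations of same-numbered libraries from their group means correlated over 0.1 in every pair for GFP untreated with DoxAuxin and for SPOC untreated with Dox and with DoxAuxin, so in the data the numbers pair these groups, which the labels do not state. Symbols were matched through GENCODE M21, which held 53706 of 53801 IDs. All pairs of replicates differed by more than sampling noise, with a chi-square per gene of 1.756 to 14.671. The most alike were SPOC DoxAuxin replicates 1 and 2 (1.756), and the next pair, SPOC untreated replicates 1 and 4, was at 2.749. Whether SPOC DoxAuxin replicates 1 and 2 came from separate cultures is not stated, and they were counted as separate libraries. Alternatives were DESeq2 (1.42.0) size factors and test, no filter, only the groups compared, leaving out each library, a replicate block, at least 50 allelic reads, limma (3.58.1) on log2 allelic ratios, allelic pairs as named, and TMM levels per kb. Fits on assigned or unassigned reads alone, and the test of one against the other, were added after seeing the data. Named are the 5 genes, the 2 called genes of largest change per partner list and line, and the 5 (Spen) or 3 most alike of the genes ranked. For the NCoR complex, 1 gene that this rule names and the counts of the list are not reported here. The genes and lists were chosen with earlier results of these data known.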

Additional observations from a re-analysis of the deposited data

Results flagged for a closer look

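In 90 sets of values (5 genes, 6 groups and 3 measures), the highest or lowest library was compared with the rest of its group by Dixon's test, and 5 stood apart, where chance gives about 1 in 20. Phf3 was at 288.49 CPM in GFP Dox replicate 4, with the other libraries of the group at 281.107 to 281.942. Phf3 was at 309.82 CPM in SPOC DoxAuxin replicate 4, with the others at 277 to 285. The BL6 share of Rbm15 was 55.648% in SPOC DoxAuxin replicate 3, with the others at 52.4% to 53.1%. The allele-assigned share of Dido1 was 24.84% in SPOC Dox replicate 1, and that of Rbm15 was 29.366% in SPOC DoxAuxin replicate 1.

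Changes that differed between the lines by edgeR's test of the difference itself were those of Spen with DoxAuxin against untreated (-0.6896) and against Dox (-0.5503), of Dido1 with DoxAuxin against Dox (0.2338), and of the ratio of assigned to other Spen reads with DoxAuxin against untreated (0.8231).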

How the results depend on the processing

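Counts here are of the 5 SPOC domain genes called, unless all genes are named. With only the groups compared in the fit, 2 genes were called for Dox against untreated in the GFP line, 3 for DoxAuxin against Dox in the GFP line, 1 between the lines with DoxAuxin, and 1 and 0 for the line difference in the change from Dox and from untreated cells. For Dox against untreated in the SPOC line, that fit lost the calls of Rbm15 and Rbm15b (edgeR adjusted p = 0.0503 and 0.0769). It called Dido1 and Phf3 there in their place (adjusted p = 0.0225 and 0.033). With no filter on low counts, 0 were called for Dox against untreated in the SPOC line, 1 between untreated lines and 1 for the line difference in the change from Dox. With DESeq2 size factors, 1 was called for Dox against untreated in the SPOC line. On reads assigned to an allele, 1 was called for Dox against untreated and 1 for DoxAuxin against untreated in the SPOC line, 1 between untreated lines, 0 between the lines with Dox, and 0 for both line differences in change, where that of Spen against Dox turned from -0.5503 to 0.03778. On unassigned reads, 0 were called for Dox against untreated in the SPOC line. With allelic columns taken as named, 0 were called in either line for DoxAuxin against untreated (Spen -0.11 and -0.07). The cause of these shifts was not tested.

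Leaving out single libraries gave 1 to 1 (GFP) and 0 to 2 (SPOC) called for Dox against untreated, 4 to 5 and 3 to 3 for DoxAuxin against Dox, and 2 to 3 in each line for DoxAuxin against untreated. Between the lines it gave 1 to 3 untreated, 1 to 1 with Dox and 2 to 4 with DoxAuxin, and for the line differences 0 to 3 (from untreated) and 1 to 3 (from Dox). Allelic counts stayed at 1 for DoxAuxin against untreated in each line and at 0 elsewhere.

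Replicate numbers paired 3 of 6 pairs of groups within a line, as told with the processing: over all 6, correlations of same-numbered libraries ran from -0.0671 to 0.447 in the GFP line (8 of 12 over 0.1) and from -0.0693 to 0.643 in the SPOC line (14 of 15), and 19 of 24 and 26 of 30 library comparisons were highest with their own number. With the replicate number as a block, 2 SPOC domain genes were called for the line difference from untreated cells and 3 for that from Dox, which adds Dido1 (adjusted p = 0.024) to the first and Phf3 (adjusted p = 0.042) to the second. Rbm15 between the lines with DoxAuxin lost its call with numbers shared by the lines (adjusted p = 0.072), and the block changed no call of a SPOC domain gene beyond these and Dido1 in the SPOC line. Within the lines the block gave 1 and 3 (Dox against untreated), 2 and 3 (DoxAuxin against untreated) and 5 and 3 (DoxAuxin against Dox). Of all genes, the block called 4145 against 2478 for Dox against untreated in the SPOC line, 3317 against 1495 for the line difference from Dox and 2006 against 441 for that from untreated cells.

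Other counts of all genes that moved by over 1.5 times were those with allelic columns as named, which fell to 0 from 566 and 6 from 451 (Dox against untreated), 2 from 748 and 13 from 595 (DoxAuxin against untreated), 0 from 50, 1 from 261 and 2 from 354 (between the lines) and 19 from 86 (line difference). With limma the allelic counts were 32 and 38 in place of 50 (untreated lines) and 86. Assigned reads alone called 2521 in place of 3837 and 1520 in place of 2478 (Dox against untreated), 961 in place of 2122 and 1101 in place of 1962 (lines, untreated and Dox), 826 in place of 1495 and 247 in place of 441 (line differences). The line difference from untreated cells had 810 genes by the DESeq2 test, 211 with only the groups compared, and 207 (without GFP untreated replicate 4) to 865 (without GFP DoxAuxin replicate 4) with 1 library left out. Phf3 and Rbm15 had few allelic reads. For DoxAuxin against untreated cells of the GFP line, the SE of the allelic log2 change was 0.0977 for Phf3 and 0.0795 for Rbm15. In the SPOC line these SEs were 0.09 and 0.0737. Small allelic changes of both genes may have been missed, and whether they could be detected at this depth was not tested.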
